A study of Mus musculus with 54 samples.

Results

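Methylation in intestinal adenomas of C5F1 mice was compared with that in adenomas of B6 mice, as read from methylated DNA immunoprecipitation followed by sequencing (MeDIP-seq). The members were taken by label: 3 C5F1 adenoma libraries (12_6, 12_9 and 16_11) and 5 B6 adenoma libraries (2_1, 4_1, 4_2, 9_3A and 10_2), which make 8 of the 46 MeDIP libraries with counts and 8 of the 54 labelled samples. B6 is C57BL/6. C5F1 is labelled as the F1 of C57BL/6 and CSS C57BL/6 chr5 PWD, a chromosome substitution strain that carries chromosome 5 of PWD/Ph on C57BL/6, so a C5F1 mouse has 1 PWD copy and 1 B6 copy of that chromosome. All adenoma donors were labelled APC min (the Min allele of Apc) and 15 to 19 weeks old. The comparison was set beside normal mucosa of APC min mice (3 C5F1 and 3 B6 libraries, called normal mucosa below), wild type mucosa (3 C5F1, 4 B6 and 3 PWD libraries) and mucosa of the substitution strain itself, called C5 (3 normal mucosa libraries of APC min mice and 3 of wild type mice), all of the same age range. Some values are also given for C5 adenomas and for adenomas, normal mucosa and wild type mucosa labelled B6xPWD, a cross of B6 and PWD. These have 3 libraries each, of the same age range. The labels name no animal, sex, intestinal segment or C57BL/6 substrain, so the X chromosome was left out and p-values measure the spread between these libraries, which may share animals.

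Apc restrains the Wnt pathway, and the Min allele of this gene gives mice many intestinal adenomas after the remaining normal copy is lost. DNA methylation sits mostly on the cytosine of CG pairs. CG-rich promoters are usually free of it, and tumours often gain it at some promoters and lose it elsewhere. PWD is a strain derived from wild Mus musculus musculus and differs from the mainly Mus musculus domesticus genome of C57BL/6 at many bases. MeDIP captures fragments with an antibody against methylated cytosine, so the count of a window depends on its methylation, its number of CG pairs, its copy number and on whether its reads align to the reference, which was built from C57BL/6J. In these whole-tissue counts those contributions, and the share of each cell type, cannot be told apart.

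The 8 adenoma libraries held 14771573 to 23033742 autosomal counts in windows of 250 bp. Levels are given in CPM, the counts in every 1000000 autosomal counts, scaled by edgeR's TMM factors, and intervals of ratios are exact 95% intervals for counting error only. CpG-dense windows, those at 10 or above on the deposited CpG density scale, held 5.77% ± 1.14 (SD, n = 3) of the counts in C5F1 adenomas and 6.90% ± 0.216 (SD, n = 5) in B6 adenomas. The C5F1 libraries 12_6, 12_9 and 16_11 lay at 6.39%, 6.46% and 4.45%, all below the lowest B6 library at 6.68%, and the difference of -1.14 percentage points had an exact two-sided permutation p of 0.0179, the smallest that 56 regroupings can give. Without 16_11 the difference was -0.477 percentage points. The first number of the sample labels was 12 or 16 in C5F1 adenomas and 2, 4, 9 or 10 in B6 adenomas, and the normal mucosa libraries carried 12 and 16 against 4 and 9. That number and the strain therefore cannot be told apart within either tissue. In wild type mucosa B6 has a library whose first number is 16, and this library, 16_8, had 4.24% of its counts in CpG-dense windows, against 6.34% to 7.18% in the other 3 B6 libraries. The libraries numbered 16 were also the lowest in C5F1 normal mucosa, at 4.54%, and in C5 adenomas, normal mucosa and wild type mucosa, at 4.18%, 4.06% and 4.43%. In the C5F1 wild type the lowest was 16_7 at 5.24%, and in B6xPWD normal mucosa it was 16_5 at 5.55%. In wild type PWD and in adenomas and wild type mucosa of B6xPWD it was a library with another number.

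The promoters below belong to genes whose gene ends differed between the adenomas, on chromosome 5 in either direction and elsewhere. Each sequence covers the 250 bases before the annotated start from RefSeq, on build GRCm38.p6 (the mm10 assembly), written 5′ to 3′ on the gene's own strand, with every CG pair in capitals because CG pairs carry the captured mark. Over 31396 promoters of this length the median number of CG pairs was 6. The promoter of Mvk lies at chr5:114444019-114444268 on the plus strand, overlaps the promoter of Mmab on the other strand, and has 13 CG pairs, a number reached by 32.1% of promoters. That of Thegl lies at chr5:77015773-77016022 on the plus strand and has 19 (20.3%). On the other autosomes, the promoter of 2310057M21Rik at chr7:131362727-131362976 (minus strand) has 20 (18.4%), that of Cisd1 at chr10:71344850-71345099 (minus strand) has 30 (6.12%), and that of Romo1 at chr2:156143983-156144232 (plus strand), which overlaps the promoter of Nfs1, has 26 (9.89%).
Mvk: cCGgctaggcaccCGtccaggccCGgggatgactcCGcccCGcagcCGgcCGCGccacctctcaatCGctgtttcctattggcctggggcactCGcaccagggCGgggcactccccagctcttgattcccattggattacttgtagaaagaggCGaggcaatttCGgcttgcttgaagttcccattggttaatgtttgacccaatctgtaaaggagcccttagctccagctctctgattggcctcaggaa
Thegl: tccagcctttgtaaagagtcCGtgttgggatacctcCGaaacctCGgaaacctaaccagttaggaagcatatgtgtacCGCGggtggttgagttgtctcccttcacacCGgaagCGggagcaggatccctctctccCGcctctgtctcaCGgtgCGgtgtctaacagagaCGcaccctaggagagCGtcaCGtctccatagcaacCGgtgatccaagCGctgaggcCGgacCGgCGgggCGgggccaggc
2310057M21Rik: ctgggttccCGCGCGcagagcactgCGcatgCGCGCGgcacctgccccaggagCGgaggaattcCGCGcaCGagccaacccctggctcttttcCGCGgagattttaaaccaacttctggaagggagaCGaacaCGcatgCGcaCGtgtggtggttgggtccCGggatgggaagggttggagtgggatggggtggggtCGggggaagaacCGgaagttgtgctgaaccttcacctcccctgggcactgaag
Cisd1: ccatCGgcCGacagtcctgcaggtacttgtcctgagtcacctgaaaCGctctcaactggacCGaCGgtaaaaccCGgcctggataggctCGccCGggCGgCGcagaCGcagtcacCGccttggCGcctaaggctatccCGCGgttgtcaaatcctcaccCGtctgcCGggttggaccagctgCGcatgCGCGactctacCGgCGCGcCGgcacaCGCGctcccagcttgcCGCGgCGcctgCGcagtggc
Romo1: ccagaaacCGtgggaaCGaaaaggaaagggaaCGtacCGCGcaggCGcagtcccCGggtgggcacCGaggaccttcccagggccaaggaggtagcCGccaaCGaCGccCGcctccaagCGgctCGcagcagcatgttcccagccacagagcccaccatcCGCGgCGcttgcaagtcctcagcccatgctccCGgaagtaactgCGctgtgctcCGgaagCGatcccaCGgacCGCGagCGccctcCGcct

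Most windows called between the adenomas lay on chromosome 5, and most calls were gains of captured counts in C5F1. Of 1172069 autosomal windows tested with edgeR's quasi-likelihood test, 541 (0.0462%) passed a Benjamini-Hochberg adjusted p of 0.05, and 499 of these were higher in C5F1 (0.0426%) and 42 lower (0.00358%). Chromosome 5 held 370 of them among 62272 tested windows (0.594%), with 340 higher (0.546%) and 30 lower (0.0482%), and the other autosomes held 171 among 1109797 (0.0154%), with 159 higher (0.0143%) and 12 lower (0.00108%). Falls were harder to call: on simulated counts 96% of 4-fold rises and 30% of 4-fold falls of windows were recovered. At an unadjusted edgeR p under 0.05, chromosome 5 had 10648 windows (17.1%), 5815 higher and 4833 lower. The balance of calls therefore does not measure the balance of differences. At 537 of the 541 windows the 3 C5F1 libraries did not overlap the 5 B6 libraries, which was so at 5.43% of all tested windows. When the first label number entered the model, no window passed, and 46624 windows (3.98%) had an unadjusted p under 0.05, against 94549 (8.07%) without it. Since the adenomas share no such number, that fit could compare them only through libraries of other groups. The number of calls also moved with single libraries. The 370 calls on chromosome 5 became 177, 208 and 232 without C5F1 libraries 12_9, 12_6 and 16_11, and 200 and 244 without B6 libraries 4_1 and 2_1. The 171 calls elsewhere became 89, 96 and 91 without those C5F1 libraries in the same order, and 93, 89, 98 and 110 without B6 libraries 4_1, 2_1, 4_2 and 10_2.

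**Figure D1:**
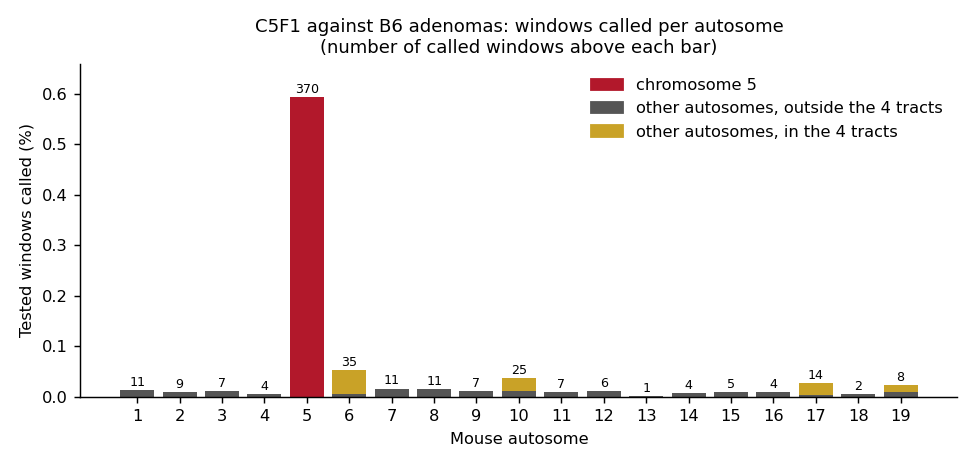
Percentage of tested windows called between C5F1 and B6 adenomas on each mouse autosome, with the number of called windows above each bar and the part of each bar in 4 short tracts in yellow. Chromosome 5 stands at 0.594% with 370 calls, and the next most calls, 35, lie on chromosome 6.

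The chromosome 5 calls were shared with tissue that was not tumour. A call was counted as seen in normal mucosa when the C5F1 minus B6 difference there had the same sign and an unadjusted edgeR p under 0.05; this comparison shares no library with that of the adenomas. By this rule 332 of the 370 chromosome 5 calls (89.7%) were seen in normal mucosa, where 12.2% of all tested chromosome 5 windows met it, and 369 had the same sign, as did 68.4% of tested windows. In wild type mucosa 338 (91.4%) were seen, again beside 12.2%. At 364 of the 370 windows (98.4%, beside 19.3% of tested windows) wild type PWD differed from wild type B6 in the same direction at an edgeR adjusted p under 0.05, and no call went the other way. The higher windows were seen in normal mucosa in 317 of 340 cases and the lower windows in 15 of 30. On their own terms, the normal mucosa and wild type comparisons called 218 (0.35%) and 254 (0.408%) windows of chromosome 5.

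Chromosome 5 windows with few CG pairs were called most often. There, 97 of 6138 windows with a CpG density under 2 were called (1.58%), all of them higher in C5F1. With falls harder to call, and windows able to pass the count filter through any group, this direction does not measure the balance of differences. In the class of 2 to 10 the calls were 253 of 52473 (0.482%), and at 10 or more they were 20 of 3661 (0.546%), of which 12 were higher and 8 lower. Of the 370 called windows, 188 lay in genes (50.8%, against 60.8% of tested windows) and 3 overlapped the 250 bases before a start site (0.811%, against 0.686%). The calls were scattered: they formed 356 regions, and only 11 of these held more than 1 window.

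The longest called region of chromosome 5 was the shared promoter of Mmab and Mvk. Mvk encodes mevalonate kinase, an enzyme of cholesterol and isoprenoid synthesis, and Mmab encodes the enzyme that makes the adenosyl form of cobalamin. All 5 windows of chr5:114443751-114445000 passed, and this region covers the Mvk promoter printed above. Its level was 6.43, 7.09 and 4.40 CPM in C5F1 adenomas 12_6, 12_9 and 16_11, and the 5 B6 adenomas held 1 count together, in 9_3A (0.0561 CPM). The ratio was 588 (95% interval 105 to 23300), and the groups stood far apart. Normal mucosa of C5F1 was at 4.74 ± 1.32 CPM (SD, n = 3), wild type C5 at 10.9 ± 3.54 CPM (SD, n = 3) and wild type PWD at 20.5 ± 1.71 CPM (SD, n = 3).

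Within that region the window with the lowest p, chr5:114443751-114444000 in Mmab, had 2.00, 1.83 and 1.58 CPM in the C5F1 adenomas and no count in any B6 adenoma. It was at least 58.3-fold higher, taking 3 counts over the B6 group as the floor (edgeR adjusted p = 2.321e-12). The Mvk windows at chr5:114444251-114444500 and chr5:114444501-114444750 were at least 55.6-fold and at least 37.2-fold higher (edgeR adjusted p = 1.218e-09 and 3.833e-11), again with every C5F1 library above B6 libraries at 0. B6 normal mucosa also stood near 0 there, at 0, 1 and 3 counts over its 3 libraries in these windows.

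Other higher windows of chromosome 5 were single windows or short runs. In Zfp68, a zinc finger gene, chr5:138610251-138610500 had 1.3, 0.739 and 1.96 CPM in the C5F1 adenomas and 1 count in the B6 adenomas, in 4_1 (0.0438 CPM). The ratio was 125 (95% interval 21.7 to 4990) with an edgeR adjusted p of 8.095e-09, and no library of the 2 groups overlapped. A run of 2 windows in Fbxl13, an F-box gene, at chr5:21532251-21532750 stood at 1.67, 1.13 and 1.19 CPM against 0.134 to 0.219 CPM, a ratio of 7.53 (95% interval 4.42 to 13.6). Another at Slc10a6, a transporter of sulphated steroids, at chr5:103605251-103605750 stood at 2.43, 0.869 and 1.52 CPM against 0.111 to 0.256 CPM, a ratio of 9.41 (95% interval 5.50 to 17.1). Every window of these runs was also seen in normal mucosa.

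The windows that fell in C5F1 adenomas on chromosome 5 still had counts in each C5F1 adenoma at the 4 windows named here. In Cep135, which encodes a centriole protein, chr5:76622751-76623000 had 0.324, 0.348 and 0.435 CPM in the C5F1 adenomas. The B6 adenomas ranged from 1.12 to 1.94 CPM with a median of 1.54, so the groups did not overlap, and the log2 difference was -2.11 ± 0.31 (SE; edgeR adjusted p = 7.162e-05). In normal mucosa the log2 difference there was -0.57 with an unadjusted edgeR p of 0.0669, just outside the rule, and the levels were 0.661 ± 0.146 against 0.993 ± 0.123 CPM (SD, n = 3 each). C5 normal mucosa had 0.202 ± 0.0952 CPM and wild type PWD 0.264 ± 0.132 CPM (SD, n = 3 each).

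A window 72944 bp from Stim2, which encodes a calcium sensor of the endoplasmic reticulum, lay at chr5:54194001-54194250 with 0.108, 0.130 and 0.0543 CPM in C5F1 adenomas and 0.670 to 0.785 CPM in B6 adenomas. Its log2 difference was -2.78 ± 0.47 (SE; edgeR adjusted p = 0.001378), all C5F1 libraries were below all B6 libraries, and C5 normal mucosa and wild type PWD had no count there. A window in Klhl5, a kelch-like gene, at chr5:65159001-65159250 fell by 1.69 ± 0.30 on the log2 scale (edgeR adjusted p = 0.002711), with 0.594, 0.565 and 0.217 CPM in C5F1 against 1.27 to 2.01 CPM in B6. Without C5F1 library 16_11, the lowest of the 3, that difference was -1.38 with an edgeR adjusted p of 0.103. A window in Gm4869 at chr5:140478751-140479000 fell by 1.90 ± 0.34 (SE, log2; edgeR adjusted p = 0.002712), with all 3 C5F1 libraries (0.272 to 0.432 CPM) below all 5 B6 libraries (1.01 to 1.54 CPM). Without C5F1 library 12_9 it was -1.82 with an edgeR adjusted p of 0.0696.

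Averaged over windows higher and lower in PWD, chromosome 5 of the C5F1 adenomas stood near the middle between B6 and PWD along its whole length. For this, windows were chosen on wild type PWD and wild type B6 libraries alone (edgeR adjusted p under 0.05 and at least 2-fold apart): 6991 windows higher and 4836 lower in PWD on chromosome 5, and 69933 and 132835 on the other autosomes. Each library's summed CPM was then placed on a scale from 0 (mean of wild type B6) to 100 (mean of wild type PWD), with higher and lower windows weighted equally. On chromosome 5 the C5F1 adenomas 12_6, 12_9 and 16_11 lay at 49.2, 52.7 and 46.4, and the B6 adenomas at 2.53 to 9.30. The means were 49.4 ± 3.19 (SD, n = 3) and 5.76 ± 2.63 (SD, n = 5), and the exact two-sided permutation p of the difference was 0.0179, the smallest possible. C5F1 normal mucosa lay at 48.4 ± 2.34 and C5F1 wild type mucosa at 47.3 ± 1.62, while C5 normal mucosa lay at 85.3 ± 2.15 (SD, n = 3 each). These averages hold unlike parts: the C5F1 adenomas lay at 42.1 ± 3.53 over the windows higher in PWD and at 56.7 ± 3.0 over those lower in PWD, and C5 normal mucosa at 73.5 ± 2.79 and 97.1 ± 2.31. Wild type mucosa of B6xPWD lay at 49.1 ± 1.94 and 47.4 ± 1.51 (SD, n = 3 each). In 16 bins of 10 Mb along the chromosome the C5F1 adenoma mean stayed between 47.3 and 51.0, and the B6 adenoma mean between 4.46 and 9.09. The share of tested windows called per bin ran from 0.343% to 1.03%.

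**Figure D2:**
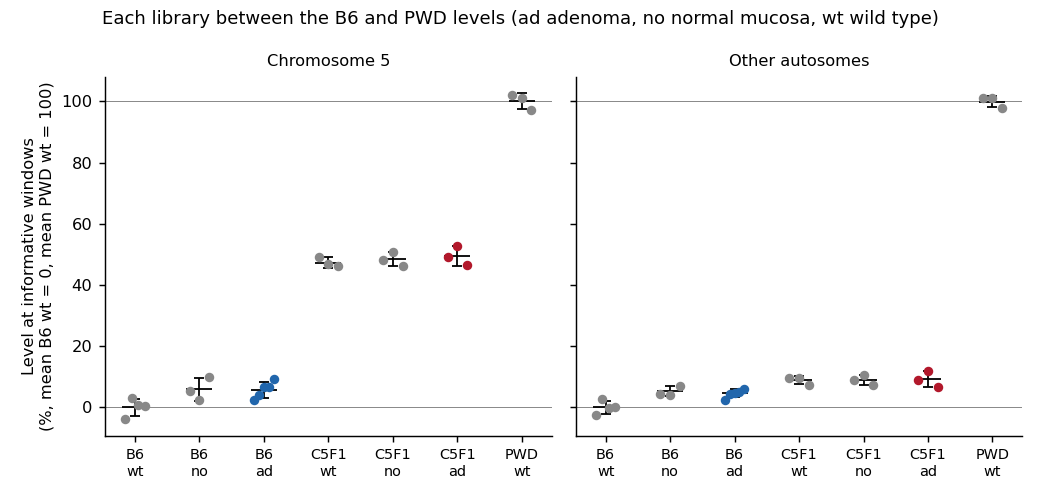
Level of each library at windows that differ between wild type PWD and wild type B6, in percent, with mean wild type B6 at 0 and mean wild type PWD at 100, for chromosome 5 and for the other autosomes. Points are libraries, and the black marks are means with the SD. On chromosome 5 the 3 C5F1 adenomas sit at 46.4 to 52.7 and the 5 B6 adenomas at 2.53 to 9.30.

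On the other autosomes the same scale put C5F1 adenomas at 8.81, 11.9 and 6.79 and B6 adenomas at 2.52 to 6.13. The means were 9.16 ± 2.55 (SD, n = 3) and 4.57 ± 1.31 (SD, n = 5) and the libraries did not overlap (exact two-sided permutation p = 0.0179). With B6 normal mucosa as the low end of the scale the C5F1 adenoma mean was 4.16. C5F1 normal mucosa was at 8.97 ± 1.71 and B6 normal mucosa at 5.21 ± 1.64 (SD, n = 3 each). The share of all autosomal counts that fell on chromosome 5 was 5.10% ± 0.107 (SD, n = 3) in C5F1 adenomas and 5.23% ± 0.0786 (SD, n = 5) in B6 adenomas, a difference of -0.13 percentage points (exact two-sided permutation p = 0.107, or 0.407 adjusted over the 19 autosomes).

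Off chromosome 5 a large part of the calls fell into 4 short tracts, where C5F1 libraries of every tissue had counts and B6 libraries had almost none. The tracts were defined after the calls were seen, as clusters of at least 5 calls with gaps of at most 100 kb, so their levels are a description. They held 65 of the 171 calls, all higher in C5F1. Outside them 106 windows of 1109691 were called (0.00955%), with 94 higher (0.00847%) and 12 lower (0.00108%). In the tracts of chromosomes 10, 17 and 19 the levels of C5F1 adenomas were 54.8%, 52.0% and 50.0% of those in wild type C5 mucosa.

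The tract chr10:89883751-89944750 (61.0 kb) lies in Anks1b, a gene of the postsynaptic density. It had 13.8, 13.9 and 18.0 CPM in C5F1 adenomas against 0.0793 ± 0.0679 CPM (SD, n = 5) in B6 adenomas, a ratio of 183, with 17 of 28 tested windows called. The tract chr17:6451751-6592250 (140.5 kb), with Gm2808 and Gm29721, had 19.4, 19.4 and 14.1 CPM against 0.607 ± 0.104 CPM (SD, n = 5), a ratio of 28.7, and 12 of 21 tested windows were called. The tract chr19:28630751-28645250 (14.5 kb) lies in Glis3, a zinc finger transcription factor gene, and had 5.24, 5.09 and 7.71 CPM against no count in any B6 adenoma, at least 192-fold, with 5 of 10 tested windows called. In each of them every C5F1 adenoma lay above every B6 adenoma. The 12 B6 libraries of all tissues held 15, 128 and 3 counts in these tracts. Windows there could pass the count filter almost only through groups with counts, so the called shares are no support. The chromosome 17 tract also stood apart from PWD, since the C5F1 adenomas had 205% of the wild type PWD level there, against 45.4% in that of chromosome 10 and 56.4% in that of chromosome 19. Within C5 these tracts were not uniform. In that of chromosome 17, C5 normal mucosa 16_2 had 0.425 CPM and C5 adenoma 16_3 had 0.440 CPM, near the B6 level. The same libraries had 0.0531 and 0 CPM in that of chromosome 19. In that of chromosome 10 the C5 adenomas 12_3, 12_5 and 16_3 had 12.8, 30.8 and 17.8 CPM.

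**Figure D3:**
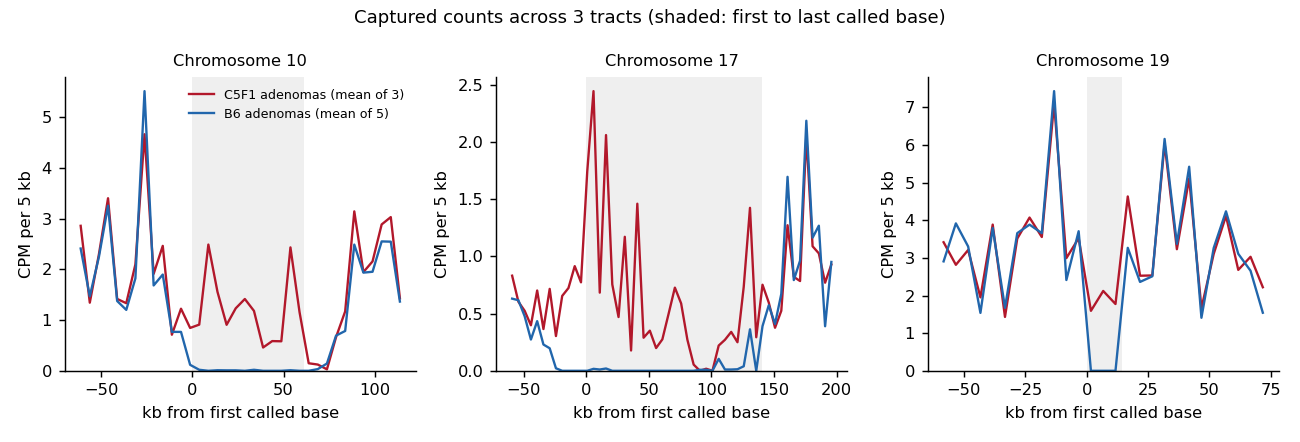
Mean captured counts in CPM, in bins of 5 kb across the tracts of chromosomes 10, 17 and 19, by group, against the distance in kb from the first called base. Shading runs from the first to the last called base. Within the shading the B6 adenoma line lies close to 0 except near the right edge on chromosome 17 and at both edges on chromosome 19. Farther out on either side the C5F1 and B6 adenoma lines come together.

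Away from chromosome 5, 124 of the 171 calls (72.5%) were seen in normal mucosa, where 3.94% of tested windows met the rule, and 102 (59.6%, beside 2.9%) in wild type mucosa. PWD differed from B6 in the same direction at 85 (49.7%, beside 11.1%) and in the opposite direction at 4. Without the tracts, which was tried after seeing the data, 59 of 106 (55.7%, beside 3.94%) were seen in normal mucosa and 37 (34.9%, beside 2.89%) in wild type mucosa, and PWD differed in the same direction at 30 (28.3%, beside 11.1%). Called windows were placed at promoters in 6 of 171 cases (3.51%, against 0.642% of tested windows). By CpG density, 26 of 57092 CpG-dense windows were called (0.0455%), 78 of 878839 in the class of 2 to 10 (0.00888%) and 67 of 173866 under 2 (0.0385%).

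Gene ends, each running from 1000 bp outside to 500 bp inside the CpG-rich end of a gene, rose at several CG-rich promoters off chromosome 5. That of Cisd1, which encodes an iron-sulphur protein of the outer mitochondrial membrane, had 1.46, 1.45 and 1.15 CPM in C5F1 adenomas and 0.320 to 0.589 CPM in B6 adenomas. The groups did not overlap, and the log2 difference was 1.39 ± 0.27 (SE; edgeR adjusted p = 0.005293). Without C5F1 library 12_9 it was 1.34 with an edgeR adjusted p of 0.0685, and over 2000 bp on either side of the gene end it was 0.79 with an edgeR adjusted p of 0.167. The window beside the start, chr10:71344501-71344750, had 0.810, 0.739 and 0.543 CPM against no count in B6 adenomas, at least 22.7-fold (edgeR adjusted p = 3.497e-06). C5 normal mucosa (1.17 ± 0.622 CPM) and wild type PWD (1.24 ± 0.193 CPM) had counts there too (SD, n = 3 each).

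Romo1, which encodes an inner-membrane protein linked to reactive oxygen species, and Nfs1, the cysteine desulphurase that supplies sulphur for iron-sulphur clusters, start within the same windows of chromosome 2, so their gene ends share counts. Romo1 had 1.46, 1.78 and 0.634 CPM in C5F1 adenomas and 0 to 0.364 CPM in B6 adenomas, a log2 difference of 3.15 ± 0.41 (SE; edgeR adjusted p = 4.731e-07). Nfs1 had 1.14, 1.45 and 0.403 CPM against 0 to 0.364 CPM, a log2 difference of 3.26 ± 0.48 (SE; edgeR adjusted p = 1.397e-05). In both genes the lowest C5F1 library, 16_11, lay above the highest B6 library, 4_2. C5 normal mucosa and wild type PWD had 1.87 ± 0.625 and 2.78 ± 0.0738 CPM at Romo1 (SD, n = 3 each).

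At the gene end of 2310057M21Rik the C5F1 adenomas had 1.92, 1.90 and 1.27 CPM and the B6 adenomas 0.0574 to 0.317 CPM, a log2 difference of 2.89 ± 0.34 (SE; edgeR adjusted p = 1.762e-08). Its window chr7:131362501-131362750 overlaps the promoter printed above and held 2 counts over all B6 adenomas, a ratio of 42.1 (95% interval 11.1 to 357; edgeR adjusted p = 3.497e-06). Kpnb1 encodes importin beta, a carrier of nuclear import. Its gene end had 1.25, 1.01 and 0.634 CPM against 0.0906 to 0.208 CPM, a log2 difference of 2.60 ± 0.46 (SE; edgeR adjusted p = 0.0008667). In both genes every C5F1 library lay above every B6 library, and C5 normal mucosa was higher still, at 2.69 ± 1.04 CPM for 2310057M21Rik and 1.31 ± 0.412 CPM for Kpnb1 (SD, n = 3 each).

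**Figure D4:**
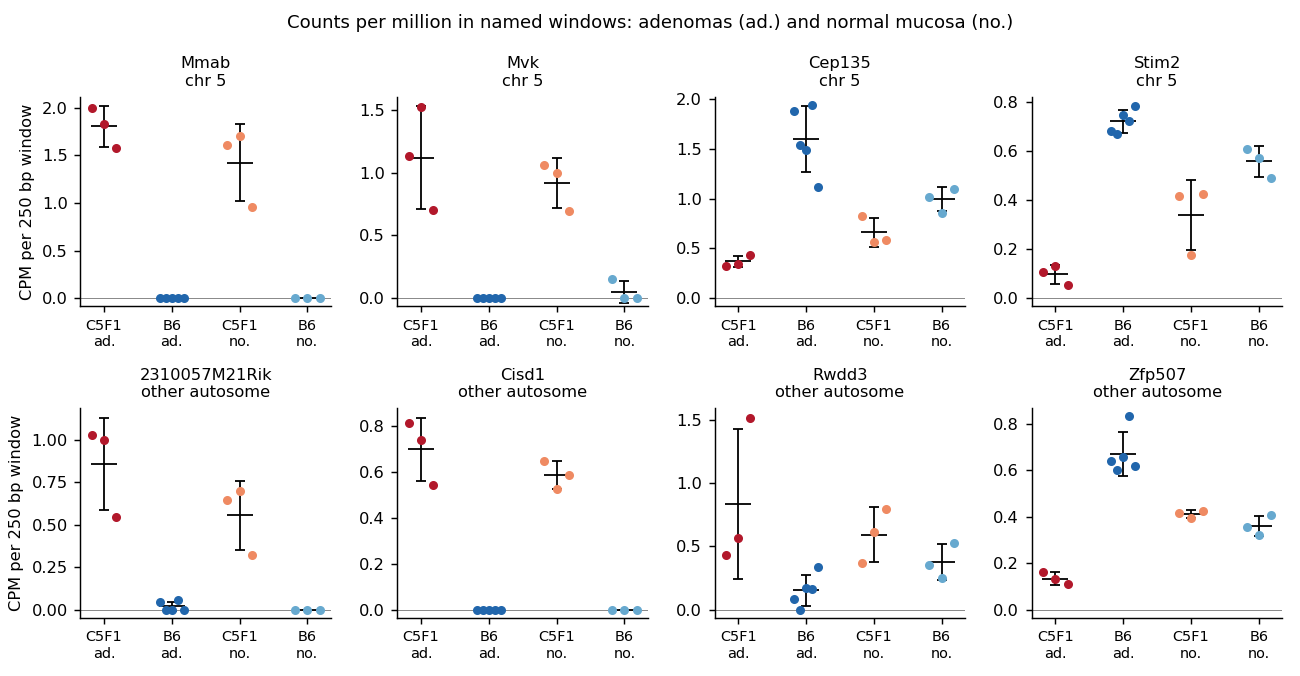
Levels in CPM at named windows for C5F1 and B6 adenomas and normal mucosa. Points are libraries, and the black marks are means with the SD. Each panel carries the name of the gene that holds the window or lies nearest to it. At the Mmab, Mvk and Cisd1 windows all 5 B6 adenomas are at 0, and at the Cep135, Stim2 and Zfp507 windows the 3 C5F1 adenomas lie below the 5 B6 adenomas.

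Of the 541 calls, 85 were not seen in normal mucosa: 38 on chromosome 5 and 47 elsewhere. On chromosome 5, 37 of the 38 had the same sign in normal mucosa and 25 were seen in wild type mucosa. Elsewhere 41 of the 47 had the same sign, as had 59.4% of tested windows, and 39 were seen in neither. The difference between the tissues was tested itself, as an interaction of strain and tissue. No window passed that test (lowest edgeR adjusted p 1; 32155 windows, 2.74%, at an unadjusted p under 0.05), and no gene end passed it (383, 2.70%, at an unadjusted p under 0.05). DESeq2 called no gene end either, with 197 at an unadjusted p under 0.05. Of the 85 windows, 69 had an unadjusted interaction p under 0.05, but they had been selected as called in adenomas and not seen in normal mucosa.

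**Figure D5:**
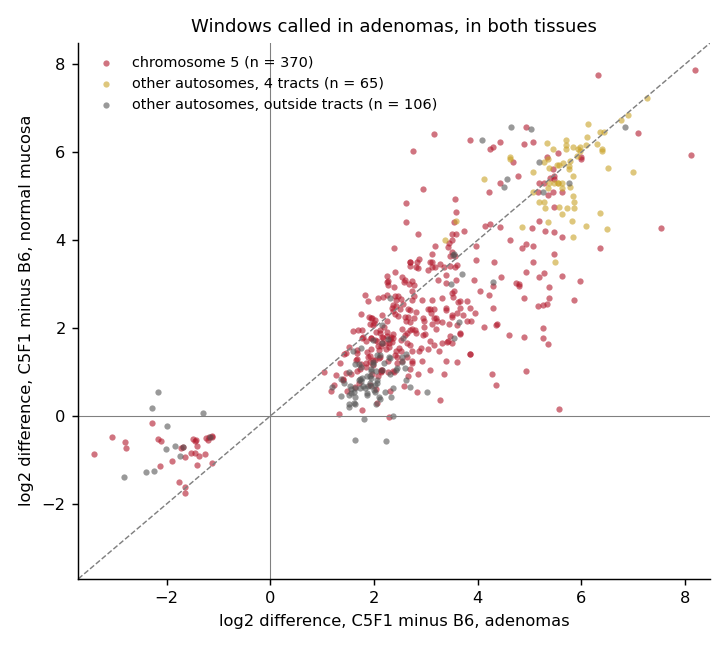
The log2 difference between C5F1 and B6 in adenomas (x axis) and in normal mucosa (y axis) for the 541 windows called in adenomas, coloured by chromosome 5, the 4 tracts and the rest of the autosomes. The dashed line marks equal differences, and 534 of the 541 windows have the same sign in both tissues, as have 59.9% of all tested windows.

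Among the higher windows not seen in normal mucosa, the one with the lowest p lay at chr3:120640501-120640750, 514647 bp from Rwdd3, in sequence with almost no CG pairs (CpG density 0.0602). It had 0.432, 0.565 and 1.52 CPM in C5F1 adenomas and 0 to 0.336 CPM in B6 adenomas, and its log2 difference was 2.37 ± 0.43 (SE; edgeR adjusted p = 0.003437), against 0.63 in normal mucosa. Without the high C5F1 library 16_11 it was 1.67 with an edgeR adjusted p of 0.321. A window in Rbfox1, which encodes a splicing regulator, at chr16:6222001-6222250 had 0.648, 0.565 and 0.435 CPM against 0 to 0.131 CPM, a log2 difference of 3.03 ± 0.55 (SE; edgeR adjusted p = 0.003885). It too had almost no CG pairs (CpG density 0.0584). All 3 C5F1 libraries lay above the 5 B6 libraries, while in normal mucosa the levels were 0.419 ± 0.131 and 0.287 ± 0.034 CPM (SD, n = 3 each). A window in Cdh13, the gene of T-cadherin, at chr8:118177751-118178000 had 0.540, 0.739 and 0.543 CPM against 0 to 0.222 CPM (log2 difference 2.38 ± 0.44, SE; edgeR adjusted p = 0.004688). Normal mucosa had 0.388 ± 0.228 and 0.398 ± 0.0963 CPM (SD, n = 3 each), and without C5F1 library 12_9 the adenoma difference was 2.20 with an edgeR adjusted p of 0.12.

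Lower windows not seen in normal mucosa included one in Wwox, an oxidoreductase gene that spans a fragile site, at chr8:115058001-115058250. It had 0.810, 0.565 and 0.706 CPM in C5F1 adenomas and 1.40 to 1.84 CPM in B6 adenomas (log2 difference -1.31 ± 0.25, SE; edgeR adjusted p = 0.007853), with no overlap. C5F1 and B6 normal mucosa had 1.38 ± 0.103 and 1.31 ± 0.193 CPM (SD, n = 3 each), between the adenoma groups. The Wwox call was lost without C5F1 library 12_9 (-1.16, edgeR adjusted p = 0.182) and without 16_11 (-1.32, edgeR adjusted p = 0.063), and with an offset for CpG density (-1.11, edgeR adjusted p = 0.144).

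A window 52251 bp from Zfp507, a zinc finger gene, at chr7:35855251-35855500 had 0.162, 0.130 and 0.109 CPM in C5F1 adenomas against 0.603 to 0.832 CPM (log2 difference -2.28 ± 0.40, SE; edgeR adjusted p = 0.002086). Normal mucosa of both strains lay between, at 0.412 ± 0.017 and 0.362 ± 0.043 CPM (SD, n = 3 each), and without C5F1 library 12_9 the edgeR adjusted p was 0.0586. The window nearest to Lonrf2, 67669 bp away at chr1:38725751-38726000, fell by 2.00 ± 0.42 (SE, log2; edgeR adjusted p = 0.02484). That call was lost in 7 of the 8 fits that left out 1 adenoma library, with edgeR adjusted p-values of 0.0508 to 0.269. Of the lower windows that were seen in normal mucosa off chromosome 5, the one nearest to Kbtbd8 (7130 bp away, chr6:95110501-95110750, CpG density 0.467) had 0.0869 to 0.109 CPM against 0.536 to 1.05 CPM, and fell by 2.83 ± 0.53 (SE, log2; edgeR adjusted p = 0.00581). Without C5F1 library 12_6 or 12_9 its edgeR adjusted p was 0.0564 or 0.111.

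The lowest interaction p-values belonged to windows where the strains differed in opposite directions in the tissues. In Flrt2, a membrane protein gene, C5F1 and B6 stood at 0.510 ± 0.0901 (SD, n = 3) and 0.331 ± 0.0882 CPM (SD, n = 5) in adenomas and at 0.111 ± 0.0258 and 0.510 ± 0.134 CPM (SD, n = 3 each) in normal mucosa, in the window chr12:95701751-95702000. The interaction was 2.76 on the log2 scale with an unadjusted edgeR p of 1.017e-05, which is 1 after adjustment. Windows in Trappc10, a gene of vesicle transport, and Prkce, which encodes protein kinase C epsilon, had log2 interactions of 2.46 and -2.57, with edgeR adjusted p-values of 1 for both.

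Gene ends gave a view closer to genes. The CpG-rich end used for each gene is the annotated 5′ end for 78.2% of genes with a known strand. Of 14171 gene ends tested 20 passed (0.141%), 14 higher in C5F1 (0.0988%) and 6 lower (0.0423%), and 919 (6.49%) had an unadjusted edgeR p under 0.05. Chromosome 5 held 7 of 762 (0.919%), all 7 seen in normal mucosa, where 8.40% of its tested gene ends met the rule. The other autosomes held 13 of 13409 (0.0969%), of which 10 were seen in normal mucosa, beside 3.18%. At all 20 the libraries did not overlap, which was so at 4.92% of all tested gene ends. The 7 calls on chromosome 5 became 3 without B6 library 10_2 or C5F1 library 16_11. The 13 elsewhere became 6 without B6 library 10_2, and 8 without B6 library 2_1 or 4_1 or without C5F1 library 12_9 or 16_11.

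On chromosome 5 the gene ends of Mmab and Mvk, which share windows, rose furthest: 6.29, 6.91 and 4.73 CPM at Mmab and 6.24, 6.91 and 4.78 CPM at Mvk in C5F1 adenomas, against 3 and 5 counts over all B6 adenomas. The ratios were 197 (95% interval 66.7 to 958; edgeR adjusted p = 6.184e-23) and 118 (95% interval 50.1 to 365; edgeR adjusted p = 1.09e-22). These were the gene ends that passed in all 19 alternatives run, the fit with the first label number included. The gene end of Thegl, a gene of the testis, fell: it had 0.572, 0.808 and 0.634 CPM in C5F1 adenomas and 1.38 to 2.04 CPM in B6 adenomas, a log2 difference of -1.44 ± 0.26 (SE; edgeR adjusted p = 0.001647). C5 normal mucosa and wild type PWD had 0.173 ± 0.0181 and 0.110 ± 0.0375 CPM there (SD, n = 3 each), so the C5F1 libraries lay between those groups and B6. Over 2000 bp on either side of the Thegl gene end the difference was -0.74 with an edgeR adjusted p of 0.167.

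Another 4 gene ends of chromosome 5 passed with less room. Gm21671 and Gm20385 rose by 2.85 and 2.82 on the log2 scale (edgeR adjusted p = 0.01094 and 0.01486), and neither passed with DESeq2 (adjusted p = 0.0783 and 0.179). Over 2000 bp on either side of the gene end their differences were 0.68 and 0.77 (edgeR adjusted p = 0.616 and 0.718), and those of Tmem233 and Trrap, described next, were -1.05 and -0.64 (edgeR adjusted p = 0.0715 and 0.314). Tmem233, a membrane protein gene, had 0.427 ± 0.16 CPM (SD, n = 3) against 1.24 ± 0.402 CPM (SD, n = 5; log2 difference -1.56, edgeR adjusted p = 0.0274), and without C5F1 library 12_9 its edgeR adjusted p was 0.479. Trrap, a subunit of histone acetyltransferase complexes, had 2.60 ± 0.351 CPM (SD, n = 3) against 4.53 ± 0.597 CPM (SD, n = 5; log2 difference -0.79, edgeR adjusted p = 0.02765). The CpG-rich end of Trrap is its 3′ end; at its 5′ end the difference was 0.50 with an edgeR adjusted p of 0.766. Without C5F1 library 16_11 the Gm21671, Gm20385 and Trrap calls were lost, with edgeR adjusted p-values of 0.0983, 0.445 and 0.288.

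Off chromosome 5, the lower gene ends were Gm28455, Pcdhb1, a clustered protocadherin, and Cbln4, a secreted synaptic protein. At Cbln4 the C5F1 adenomas had 1.20, 0.646 and 0.807 CPM and the B6 adenomas 1.44 to 2.49 CPM (log2 difference -1.19 ± 0.28, SE; edgeR adjusted p = 0.04558). Normal mucosa of C5F1 and B6 stood at 0.965 ± 0.239 and 0.998 ± 0.151 CPM there (SD, n = 3 each), near the C5F1 adenomas and below the B6 adenomas. Without C5F1 library 12_9 the edgeR adjusted p of Cbln4 was 0.483, and DESeq2 gave adjusted p-values of 0.156 for Cbln4, 0.159 for Pcdhb1 and 0.134 for Gm28455. Over 2000 bp on either side of the gene end these 3 differences were -0.72, -0.52 and -0.82 (edgeR adjusted p = 0.115, 0.349 and 0.376).

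Gene lists fixed for the comparison moved little. The median log2 difference over all gene ends was -0.00144, with 49.8% above 0. Of 57 tested genes of chromosome 5 with roles in growth, signalling or metabolism, 30 were above 0 and 27 below. Mmab and Mvk, which share windows, were the members that passed, beside 0.919% of all tested gene ends of that chromosome. The next by p was Tbc1d1, a regulator of glucose transport, at 0.72 (edgeR adjusted p = 0.561). None of the 14 other lists had a member that passed. Since 0.141% of all tested gene ends passed, lists of this size say little by having none. Of 19 Wnt antagonists 7 were above 0 and 12 below (median -0.134), of 16 stem cell and Wnt target genes 5 and 11, of 48 genes known for methylation in colorectal cancer 18 and 30 (median -0.109), and of 38 imprinted genes 13 and 25 (median -0.108). Of 13 genes of the methylation machinery, 6 were above 0 and 7 below.

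Germline genes, many of which are methylated at CG-rich promoters in somatic cells, were mostly below 0: 8 of 47 were above and 39 below (median -0.134). Without C5F1 library 16_11, which had the lowest share of counts in CpG-dense windows, 22 of 47 were above 0 and 25 below (median -0.0117). The imprinted genes then stood at 21 above and 17 below and the Wnt antagonists at 10 and 9. The stem cell and Wnt target genes stood at 7 above and 9 below (median -0.109) and the genes known for methylation in colorectal cancer at 19 and 29 (median -0.145), so these lists and the germline genes kept a median below 0, while the medians of the imprinted genes (0.0535) and the Wnt antagonists (0.0392) moved above it. With all libraries and an offset for CpG density, 14 germline genes were above 0 and 33 below (median -0.11). The median over all gene ends was then 0.0286, with 53.6% above 0. In that fit the imprinted genes stood at 14 above and 24 below and the Wnt antagonists at 7 and 12. In normal mucosa, without that offset, the median C5F1 minus B6 log2 difference was -0.105 for germline genes and -0.141 for imprinted genes. For the Wnt antagonists it was -0.155, for the stem cell and Wnt target genes -0.0931 and for the colorectal cancer genes 0.0438. Except for the last, these lists thus had a median below 0 in both tissues. The cause of the shifts in these lists was not tested.

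Marker genes of cell types were read as capture at their gene ends, since the adenomas are whole tissue, and capture is not expression, so it cannot check the labelled tissue. Summed over each list, enterocyte markers had 33.4 to 40.9 CPM in C5F1 and 36.4 to 41.1 CPM in B6 adenomas and B cell markers 24.4 to 27.6 and 23.2 to 26.9 CPM. Endothelial markers had 23.3 to 31.8 and 29.7 to 31.4 CPM. These lists overlapped between the groups, as did those of secretory and stromal cells. T cell markers did not overlap, at 35.6 to 38.2 against 38.7 to 42.8 CPM, with 6 of 22 above 0 and 16 below. Myeloid markers stood at 34.8 to 39.5 against 32.8 to 37.6 CPM, with 18 of 21 above 0. No marker gene end was at 0 in all 8 adenoma libraries, and the part of cell composition in the differences was not tested.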

How the data were processed

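MeDIP-seq counts of 46 libraries were used, in 15 groups of strain and tissue, grouped by the labels, with 9850971 autosomal windows of 250 bp. The authors deposited raw read counts per window and a CpG density score. The submitters' processing notes name BWA and the build mm10. No window held more than 500 counts. Not given in the sources used here: the aligner's version, the counter, the treatment of duplicates and the score's scale. Input libraries were not analysed here. Counts of 8216951 to 27362172 per library set the precision.

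Windows and gene ends with enough counts (filterByExpr, minimum count 10) were tested in 1 edgeR 4.0.16 quasi-likelihood model per feature type over all 46 libraries (R 4.3.3), with TMM factors, the dispersion trend of windows taken from a seeded sample of 50000 windows, and Benjamini-Hochberg adjustment over 1172069 windows or 14171 gene ends. Standard errors are the log2 difference over the square root of F. Shares and positions used exact permutation tests (scipy 1.17.1). On simulated counts for this comparison the model recovered 41% of 2-fold and 86% of 4-fold changes over 14171 gene ends, and 7% and 63% over 50000 windows. Of the calls, 10 of 137 gene ends and 2 of 72 windows were false. Each simulation held 200 changed features and drew counts from the dispersion trend alone. Its windows were adjusted over the 50000 sampled and not over 1172069, so these shares can overstate recovery in the full fit. Named windows were the 4 with the lowest p per direction on chromosome 5 and the 3 per direction elsewhere, for calls seen and not seen in normal mucosa, among calls with no overlap. Named regions were the 3 with the most windows, named gene ends up to 6 called per direction and chromosome class, and named interactions the 3 with the lowest p. From gene lists, the 2 members with the lowest p (10 for chromosome 5 genes) were candidates for naming. The comparison, its members and the gene lists were chosen with earlier results of these data known. Alternatives were other normalizations, filters, library subsets, a CpG density offset, DESeq2 1.42.0, other gene-end definitions and leaving out single libraries. A result that the naming rule picked is not reported here.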

Additional observations from a re-analysis of the deposited data

Results flagged for a closer look

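In each set of 5 B6 adenoma libraries, the highest or lowest library was compared with its nearest neighbour, relative to the range of the group. Of 83 sets tested, 13 had a library that stood apart by Dixon's criterion. For independent sets of normally distributed values chance marks about 1 in 20, or 4.15 of 83. Some sets here share counts and some hold a single count, so 13 cannot be read as an excess over 4.15. The values are in CPM, and no explanation was tested.

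At gene ends, the library that stood apart was at 0.861 for Alb, 2.08 for Chfr, 0.32 for Cisd1, 0.861 for Cx3cr1, 0.364 for Nfs1 and 1.87 for Pax5. The low Cisd1 library is 2_1 and the high Nfs1 library is 4_2; both groups of B6 adenomas still lay below every C5F1 adenoma. In the Mmab and Mvk region it was at 0.0561, in the region near Mmrn1 at 0.0427 and in the Zfp68 window at 0.0438, each a single count where the other 4 libraries had none. It was at 0.788 in the tract of chromosome 17. Among lower windows it was at 0.61 for the one nearest Lonrf2, 1.4 for Wwox and 0.832 for the one nearest Zfp507, and in each of these the library that stood apart was still above all 3 C5F1 adenomas.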

How the results depend on the processing

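Window calls on chromosome 5 numbered 370 with all libraries in the model, 236 with only the 8 adenoma libraries, 206 with the 14 APC min libraries of B6 and C5F1, 0 with the first label number in the model, and 177 to 289 with 1 adenoma library left out. On the other autosomes 171 calls became 110 with the 14 libraries, 0 with the label number, 106 without the 4 tracts (chosen after seeing the data) and 89 to 158 with 1 library left out. The other scalings and filters kept each count within 1.5 times. The share seen in normal mucosa was 89.7% on chromosome 5, and 30.8% when an adjusted p was asked of normal mucosa, 99.7% by sign alone and 88.2% to 92.2% with 1 adenoma library left out. Elsewhere it was 72.5%, and 24.6%, 96.5% and 64.6% to 80.9% in the same order, 59.6% in wild type mucosa and 55.7% without the tracts. With the label number in the model no share could be given, since no window was called. Gene ends called on chromosome 5 went from 7 to 2 with the label number, 4 with DESeq2, 4 over 2000 bp and 3 to 7 with 1 library left out, and elsewhere from 13 to 8 at a minimum count of 20, 0 with the label number and 6 to 14 with 1 library left out. The interaction called 0 windows and 0 gene ends in every alternative run. The CpG-dense share differed by -1.14 percentage points, and by -0.256 at a density of 15 or more (exact permutation p = 0.0536). The Trrap gene end turned from -0.79 to 0.495 at the annotated 5′ end, an alternative chosen after seeing the data. Beyond the changes given here, the cause of each was not tested. No paired analysis was possible because the adenomas of the strains share no replicate number. At this depth, windows changed 2-fold were mostly missed on simulated counts, and falls more often than rises: 96% of 4-fold rises and 30% of 4-fold falls were recovered.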
